A study of Mus musculus with 24 samples.

Results

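Hox genes encode homeobox transcription factors, and the mouse data contain 39 of them among 49568 genes in each of 2 tables. Members were all symbols made of Hox, a cluster letter from a to d and a number. They comprise 11 genes of the HoxA cluster on chromosome 6, 10 of HoxB on chromosome 11, 9 of HoxC on chromosome 15 and 9 of HoxD on chromosome 2. The question was which members liver mesenchyme expresses, how its sorted populations differ, and whether the pattern is kept when the cells are cultured.

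The homeostasis experiment holds 12 RNA-seq samples from 3 healthy adult littermates of 12 weeks on a C57BL/6 background, mice A and E (male) and mouse F (female). All were heterozygous for B6.129S4-Pdgfratm11(EGFP)Sor/J, in which a nuclear H2B-GFP reporter occupies 1 Pdgfra allele, so that GFP marks cells with an active Pdgfra promoter. From each mouse, 4 populations were sorted as CD45-CD11b-CD31- cells: ductal cells (DCs, EpCAM+), PDGFRα+SCA1+ cells, PDGFRα+SCA1- cells and PDGFRα-SCA1+ cells, PDGFRα being read through the GFP. The transwell experiment holds 12 samples of wild-type C57BL/6 adults of 8 to 12 weeks in 6 groups of 2 replicates. DCs were taken at day 0, after 15 days as organoids in expansion medium (EM organoids) or after 15 days above mesenchymal cells on a transwell insert (co-cultured organoids). SCA1+Msc cells (SCA1+CD45-CD11b-CD31-, with no PDGFRα gate) were taken at day 0, or at day 15 cultured alone or below DCs (co-cultured). The mesenchymal cells came from 2 littermates and the DCs from others, and the mesenchymal cells were expanded before the DCs were added. EM organoids and co-cultured organoids were grown in different media, so medium and mesenchymal cells cannot be told apart in that pair.

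Hox genes lie in 4 clusters, and genes at the same position in different clusters, the paralogues, carry the same number. Low numbers lie at the 3′ end of a cluster and are expressed from the hindbrain backwards in the embryo, and high numbers at the 5′ end are expressed towards the tail and in distal limbs. Adult fibroblasts of many organs keep a set of Hox transcripts that reflects where they arose along the body axis. Retinoic acid switches on 3′ genes, Polycomb complexes keep clusters silent, and Hox proteins bind DNA together with TALE homeodomain cofactors such as Pbx and Meis.

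Libraries held 19.6 to 25.7 M counted reads (M, 1e6) in the homeostasis and 19.3 to 28.1 M in the transwell experiment. Between 10570 and 14580 genes had a value of at least 1 per sample, the lowest being the PDGFRα+SCA1- library of mouse A. Levels are per gene length: the values deposited as TPM for homeostasis, which lie between 0.722 and 1.39 times TPM, and TPM scaled from RPKM for the transwell samples. The 2 tables were normalized separately, so levels are compared within a table. All 83 Hox values of up to 20 reads were whole reads within 0.02 of a read. Where a group has no reads, a fold compares the mean of the other group with the highest value that 3 reads would have in the libraries without reads. It is a lower bound for the mean, not for each sample, and covers counting error only. In bulk RNA, fewer cells of a type and less RNA per cell cannot be told apart.

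The sorted populations were checked against markers. Mesenchymal markers (Pdgfra, collagens, Dcn, Lum and others, 11 genes) summed to 30832-34870 for PDGFRα+SCA1+ samples, to 31175-53978 for PDGFRα+SCA1- samples and to 376-666 for PDGFRα-SCA1+ samples, with 49.8-80.7 for DCs. Endothelial markers (9 genes) summed to 6096-8158 in PDGFRα-SCA1+ cells, against 578-769 in PDGFRα+SCA1+ cells, although the sort was negative for CD31. Pecam1, which encodes CD31, was at 796 ± 116 in PDGFRα-SCA1+ cells (SD, n = 3) and at 2.25 ± 1.38 in PDGFRα+SCA1+ cells. The PDGFRα-SCA1+ samples thus carry the markers of endothelium rather than of mesenchyme, and they are named here by their gate. They also held markers of other cells. Hepatocyte markers (7 genes) totalled 3464-7879 there and erythroid markers (4 genes) 3093-7275. The PDGFRα+SCA1+ samples had 1045-2771 and 634-2305 for these lists. Ductal markers (7 genes) ran from 83.3 to 3953 over the PDGFRα-SCA1+ samples, against 83.8 to 119. The part of such cells in the Hox values was not tested. In SCA1+Msc cells at day 0, mesenchymal markers summed to 25077-26627 and endothelial markers to 1243-1247.

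In the freshly sorted livers, Hox RNA was found in the stromal populations, and it came from the 3′ and central part of the clusters. PDGFRα-SCA1+ cells had the highest sum of the 39 values, 234 ± 27 (SD, n = 3 mice). PDGFRα+SCA1+ cells followed with 91.0 ± 25.6, PDGFRα+SCA1- cells with 69.5 ± 4.37, and DCs had 0.549 ± 0.482. The DC libraries held 0 to 12 Hox reads each, against at least 771 in every stromal library. Across the 12 samples 22 of the 39 members had no read at all, namely all 16 paralogues from Hox9 to Hox13 together with Hoxa6, Hoxb1, Hoxc4, Hoxd1, Hoxd3 and Hoxd4. A value of at least 1 in every mouse was reached by 8 members for PDGFRα-SCA1+, 6 for PDGFRα+SCA1+, 2 for PDGFRα+SCA1- cells and 0 for DCs. The HoxA cluster carried 80.9 to 86.8% of the summed level in PDGFRα+SCA1+ cells, and Hoxa5 alone carried 46.9 to 51.9%.

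**Figure D1:**
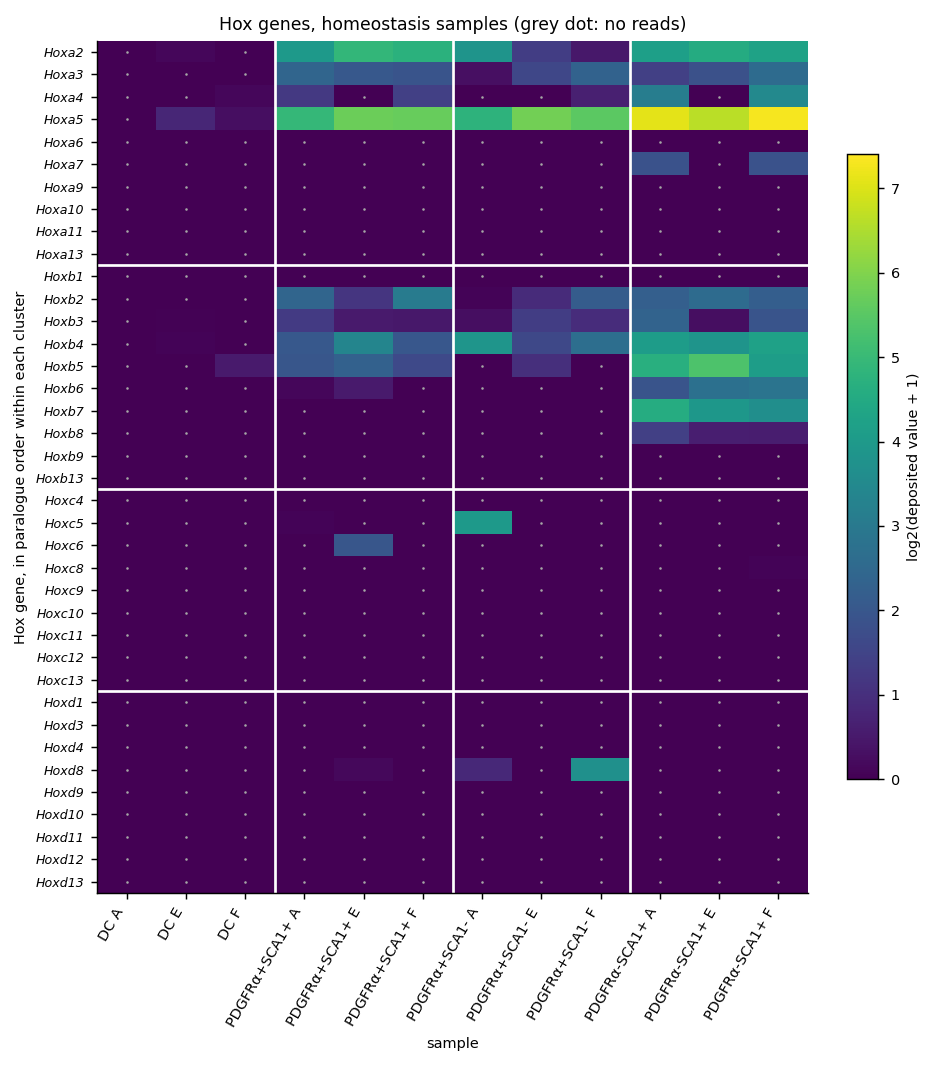
Heat map of log2(deposited value + 1) of the Hox genes reported here, in paralogue order within each cluster (rows), in the 12 homeostasis samples (columns, named by population and mouse). Grey dots mark values without reads. Signal lies in Hoxa2 to Hoxa5, Hoxa7 and Hoxb2 to Hoxb8 of the stromal populations, with isolated HoxC and HoxD values in single mice, and all paralogues from Hox9 to Hox13 are without reads.

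Hoxa5, which patterns the cervical and upper thoracic region and acts in lung and gut mesenchyme, was the highest member in every stromal population. In mice A, E and F, PDGFRα+SCA1+ cells had 29.7, 52.8 and 50.6, PDGFRα+SCA1- cells 26.7, 55.3 and 45.2, and PDGFRα-SCA1+ cells 137, 97.9 and 157. DCs had 0, 0.725 and 0.199. Every stromal sample was far above every DC sample, and every PDGFRα-SCA1+ sample above all other samples. In the fit across all 17028 genes tested, Hoxa5 was higher than in DCs by 5.11 (log2, SE 0.40) in PDGFRα+SCA1+ cells, with limma's adjusted p = 2.39e-06. Hoxa2, a gene of the hindbrain and second pharyngeal arch, had 15.1, 28.6 and 25.7 for PDGFRα+SCA1+ and 17.1, 22.6 and 18.2 for PDGFRα-SCA1+ cells. PDGFRα+SCA1- cells were at 13.4, 1.56 and 0.379, and DCs at 0, 0.0862 and 0. The PDGFRα+SCA1- mice thus spanned a wide range, with mouse A close to the SCA1+ populations and the others far below. Hoxa2 was higher in PDGFRα+SCA1+ cells than in DCs by 4.51 (log2, SE 0.74, adjusted p = 0.000741).

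Hoxb4, known for the expansion of blood stem cells, had 3.14, 9.24 and 3.02 for PDGFRα+SCA1+, 13.4, 2.04 and 5.43 for PDGFRα+SCA1- and 16.1, 13.1 and 17.7 for PDGFRα-SCA1+ cells. In DCs 1 read fell on Hoxb4 in mouse E and none in the others. The PDGFRα+ populations overlapped each other. The difference from DCs was 2.45 (log2, SE 0.64, adjusted p = 0.0143) for PDGFRα+SCA1+ and 2.69 (SE 0.64, adjusted p = 0.00747) for PDGFRα+SCA1- cells. Hoxa4, which had 81, 0 and 122 reads in PDGFRα-SCA1+ cells, was at 7.77, 0 and 10.3 there and at up to 1.65 in the other samples. Mouse E lacked it, and its difference from DCs did not pass the test without a block (2.17, SE 0.78, adjusted p = 0.0667) but did with the mouse as a block (adjusted p = 0.039). Hoxb1 was without reads throughout.

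Counted over all members, 6 of 39 Hox genes were higher in PDGFRα+SCA1+ cells than in DCs (Hoxa2, Hoxa3, Hoxa5, Hoxb2, Hoxb4 and Hoxb5), where 9.85% of all genes tested were higher and 14% lower. For PDGFRα+SCA1- cells 2 of 39 were higher (Hoxa5 and Hoxb4), with 9.98% of all genes higher and 18.9% lower. For PDGFRα-SCA1+ cells 8 of 39 were higher (these 6, Hoxb6 and Hoxb7), with 11.5% of all genes higher and 11.3% lower. No member was lower in any of these. Only 11 members passed the filter on low values in the homeostasis fits, so 28 could not be called. The shares of all genes are over those that passed it. Hoxa3, needed for thymus and parathyroid development, and Hoxb2, needed for facial motor neurons, had no reads in DCs and were at least 42.7-fold and 32.6-fold higher in PDGFRα+SCA1+ cells. The calls of Hoxa3, Hoxb2 and Hoxb5 against DCs in PDGFRα+SCA1+ cells were each lost when any 1 DC library was left out (adjusted p 0.0639 to 0.121), and that of Hoxb4 without the DC library of mouse A or F (0.0514 and 0.0508). Leaving out the PDGFRα+SCA1+ library of mouse A also ended the calls of Hoxa3, Hoxb2 and Hoxb5 (0.0593 to 0.0763), that of mouse E those of Hoxb4 and Hoxb5 (0.0686 and 0.0984) and that of mouse F that of Hoxb2 (0.0906). The calls of Hoxa2 and Hoxa5 held in every such fit. For PDGFRα-SCA1+ cells against DCs, Hoxa5 was higher by 6.66 (SE 0.40, adjusted p = 5.23e-07), Hoxb5 by 4.52 (SE 0.54, adjusted p = 6.08e-05) and Hoxa2 by 4.30 (SE 0.74, adjusted p = 0.00106). Hoxb6 and Hoxb7 passed the filter on low values only through the 3 PDGFRα-SCA1+ samples, so their calls in this population are no support, and they are described by their values. The calls of Hoxa3 and Hoxb2 there were lost without any 1 DC library (0.0627 to 0.0934) and without the PDGFRα-SCA1+ library of mouse E (0.0552 and 0.0517), and that of Hoxa3 also without that of mouse F (0.0879). Among lower members, Hoxb3 ranged from 0.213 to 4.17 over the stromal samples, Hoxa3 from 0.229 to 5.05 and Hoxb2 from 0.0439 to 7.37. Hoxa7 had reads in PDGFRα-SCA1+ cells of mice A and F only (2.64 and 2.67).

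PDGFRα-SCA1+ cells differed from the other stromal populations in the HoxB cluster. Hoxb7, a central HoxB gene, was at 22.8, 14.1 and 11.6 in PDGFRα-SCA1+ cells (220, 158 and 113 reads) and had no read in the other 9 samples. It was at least 52.0-fold higher than in each of the other populations. Its neighbour Hoxb6 was at 2.77, 5.60 and 6.16 there, against 0.0868, 0.462 and 0 for PDGFRα+SCA1+ cells. PDGFRα+SCA1- cells and DCs had no read of it. The groups did not overlap. Hoxb5, which acts in enteric neural crest and in vascular precursors, followed the same order, with 24.4, 39.5 and 16.3 for PDGFRα-SCA1+, 2.98, 3.91 and 2.09 for PDGFRα+SCA1+ and 0, 0.977 and 0 for PDGFRα+SCA1- cells. All 3 populations were separate from one another in these values. The difference between PDGFRα-SCA1+ and PDGFRα+SCA1+ cells was 2.73 (SE 0.54, adjusted p = 0.00342), and it was not called with a pseudocount of 0.1 (adjusted p = 0.1). Hoxb8, at 1.65, 0.544 and 0.516 in PDGFRα-SCA1+ cells and without reads elsewhere, was too low to be tested.

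**Figure D2:**
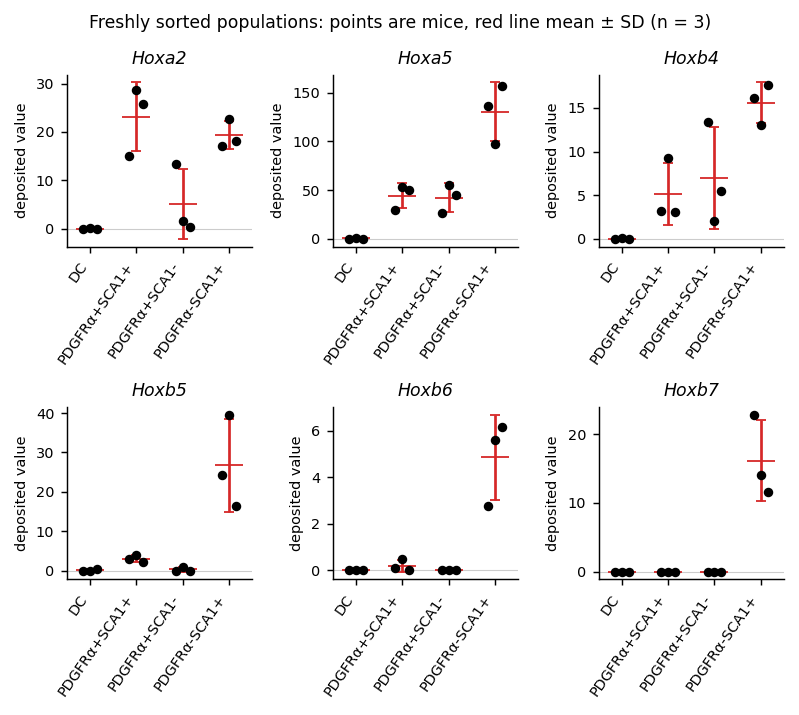
Deposited values (linear axis) of Hoxa2, Hoxa5, Hoxb4, Hoxb5, Hoxb6 and Hoxb7 in the 4 freshly sorted populations. Black points are mice, and red lines with bars are the mean ± SD (n = 3). Hoxb7 was without reads outside PDGFRα-SCA1+ cells, where the mice sit between 11.6 and 22.8, and Hoxa2 in PDGFRα+SCA1- cells runs from 0.379 to 13.4.

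Against PDGFRα+SCA1+ cells, 4 of 39 members were higher in PDGFRα-SCA1+ cells (Hoxa5, Hoxb5, and Hoxb6 and Hoxb7 with the limit above) where 10.9% of all genes tested were higher and 7.86% lower, and none was lower. Hoxa5 differed by 1.55 (SE 0.40, adjusted p = 0.0177), a 2.94-fold ratio of the means. Its call was lost without the PDGFRα+SCA1+ library of mouse A (adjusted p = 0.0849) or the PDGFRα-SCA1+ library of mouse A (0.0584) or F (0.0682), with quantile normalization (0.0588) and with a pseudocount of 0.1 (0.145). Against PDGFRα+SCA1- cells, 5 of 39 were higher (the same 4 and Hoxa2), where 14.2% of all genes were higher and 7.24% lower. Hoxb5 differed by 4.38 (SE 0.54, adjusted p = 0.000108). Hoxa2 differed by 2.45 (SE 0.74, adjusted p = 0.0348), whereas its paralogue Hoxb2 was not called (1.29, SE 0.63, adjusted p = 0.17), and Hoxa5 by 1.63 (SE 0.40, adjusted p = 0.0127). The call of Hoxa2 was lost without any 1 of the PDGFRα-SCA1+ libraries or without the PDGFRα+SCA1- library of mouse E or F (0.07 to 0.0989), with a pseudocount of 0.1 (0.0639) and with quantile normalization (0.084). That of Hoxa5 was lost without the PDGFRα-SCA1+ library of mouse F (0.051) and with a pseudocount of 0.1 (0.109). Relative to PDGFRα+SCA1+ cells, all 9 endothelial markers were higher and 10 of 11 mesenchymal markers lower in this population, and Pdgfra itself was at 0.0328 ± 0.0066 against 82.3 ± 18 (SD, n = 3). The part of these other cells in the HoxB difference was not tested.

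Between both PDGFRα+ populations limma called no Hox gene, with 0.587% of all genes called in either direction, and 2 members had an unadjusted p under 0.05. Hoxa2 was higher in PDGFRα+SCA1+ cells by 2.66 (95% interval 1.04 to 4.28, adjusted p = 0.172) and Hoxb5 by 1.64 (adjusted p = 0.242). Hoxa5 differed by 0.08, with an interval from -0.80 to 0.96. Without the PDGFRα+SCA1- library of mouse A, Hoxa2 was called. Smooth muscle markers, which summed to 1366-2975 for PDGFRα+SCA1- and 344-416 for PDGFRα+SCA1+ cells, moved with this pair, and their part was not tested. HoxC and HoxD genes appeared in single libraries. Hoxc5 was at 14.7 in PDGFRα+SCA1- cells of mouse A, from 317 reads, and without reads in those of mice E and F. Hoxd8 was at 12.0 in PDGFRα+SCA1- cells of mouse F (209 reads), 0.815 in mouse A and 0 in mouse E. Hoxc6 was at 2.97 in PDGFRα+SCA1+ cells of mouse E (42 reads) and without reads in the other 11 samples. The highest values of these 3 genes lie far above the floor of 3 reads, and their group means rest mainly on 1 mouse.

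Promoters are shown for 4 members: Hoxa2 and Hoxa5, the highest members in PDGFRα+SCA1+ cells, and Hoxb4 and Hoxb8, HoxB members with an entry in the promoter table, of which Hoxb8 had reads only in PDGFRα-SCA1+ cells among the homeostasis samples. Sequences are the 250 bases before the transcript start from RefSeq on GRCm38.p6, written 5′ to 3′ on the gene's strand, and capitals mark matches to the motifs CCAAT (the NF-Y box), TATAAA (the TATA box) and TGATTNAT (a Pbx-Hox site) on either strand. Hoxa2 lies on the minus strand at chr6:52164832-52165081, Hoxa5 on the minus strand at chr6:52204588-52204837, Hoxb4 on the plus strand at chr11:96318017-96318266 and Hoxb8 on the plus strand at chr11:96281655-96281904.
Hoxa2: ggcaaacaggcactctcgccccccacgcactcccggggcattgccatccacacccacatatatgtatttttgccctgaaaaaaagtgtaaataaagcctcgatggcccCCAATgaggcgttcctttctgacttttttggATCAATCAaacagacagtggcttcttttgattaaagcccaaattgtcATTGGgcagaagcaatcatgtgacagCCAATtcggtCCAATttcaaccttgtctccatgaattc
Hoxa5: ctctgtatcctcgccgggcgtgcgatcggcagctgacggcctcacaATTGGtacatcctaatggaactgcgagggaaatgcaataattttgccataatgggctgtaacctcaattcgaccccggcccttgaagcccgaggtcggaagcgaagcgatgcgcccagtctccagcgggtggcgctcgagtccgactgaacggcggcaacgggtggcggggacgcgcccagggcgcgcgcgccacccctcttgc
Hoxb4: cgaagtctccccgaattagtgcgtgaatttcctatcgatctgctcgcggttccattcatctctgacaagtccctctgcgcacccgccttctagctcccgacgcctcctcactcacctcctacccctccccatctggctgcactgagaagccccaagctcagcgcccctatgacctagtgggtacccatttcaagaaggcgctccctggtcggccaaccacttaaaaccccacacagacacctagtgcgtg
Hoxb8: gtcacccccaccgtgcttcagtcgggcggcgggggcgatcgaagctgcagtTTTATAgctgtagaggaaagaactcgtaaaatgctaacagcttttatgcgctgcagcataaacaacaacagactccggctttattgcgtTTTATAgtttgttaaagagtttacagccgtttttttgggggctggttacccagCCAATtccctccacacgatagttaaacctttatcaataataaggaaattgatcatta

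The Hoxa2 window holds 4 CCAAT and 1 TGATTNAT match, that of Hoxa5 1 CCAAT, that of Hoxb8 2 TATAAA and 1 CCAAT, and that of Hoxb4 none of the motifs. RefSeq entries were found for 22 members (24 windows). CCAAT was present in 14 of these 24 windows (58.3%) and in 33.8% of 32851 promoter windows of the same length, TATAAA in 4 (16.7%) and 12.4%, and TGATTNAT in 2 (8.33%) and 2.82%. For retinoic acid response elements, only exact direct repeats of AGGTCA with a spacer of 5 or 2 bases were searched. They were found in 0 of 24 and in 3 of 32851 windows each. Matches were so rare over all windows that 0 of 24 does not show that such elements are absent. CpG dinucleotides numbered 28 in the Hoxa5, 14 in the Hoxb4, 12 in the Hoxb8 and 6 in the Hoxa2 window, with medians of 12.5 over the Hox windows and 6 over all. A match of letters is a description and does not show that a factor binds.

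Freshly sorted SCA1+Msc cells of the transwell experiment, taken from other mice and without the PDGFRα gate, showed a Hox set of the same kind. Their summed Hox TPM was 62.6 ± 5.05 (SD, n = 2), against 3.84 ± 0.998 in DCs at day 0. Hoxa5 was again the highest member, at 26.5 and 35.6, followed by Hoxa2 at 16.8 and 9.96 and Hoxb5 at 3.03 and 5.03. Members at a TPM of at least 1 in both replicates were Hoxa2, Hoxa3, Hoxa5, Hoxb2, Hoxb4, Hoxb5, Hoxb6 and Hoxb7. As a description across the 39 genes, whose low values are tied at 0, Spearman's rho of the group means, from tables normalized separately, was 0.866 with PDGFRα-SCA1+ and 0.805 with PDGFRα+SCA1+ cells. Against DCs at day 0, 8 of 39 members were higher, where 21.4% of all 18136 genes tested were higher and 24.7% lower, and 16 members could be tested. Hoxa2 was higher by 2.92 (log2, SE 0.35, adjusted p = 0.000106), Hoxa5 by 3.32 (SE 0.50, adjusted p = 0.000446) and Hoxb5 by 2.30 (SE 0.38, adjusted p = 0.00082). Hoxa3 (1.81), Hoxb4 (1.61), Hoxb2 (1.42) and Hoxb7 (1.35) were also called, with adjusted p from 0.00152 to 0.00477. Hoxb5, Hoxb2, Hoxb6 and Hoxb7 had no reads in DCs and were at least 23.4-fold, 12.2-fold, 6.90-fold and 5.17-fold higher. The call of Hoxb6 (1.39, SE 0.45, adjusted p = 0.0303) was lost without either DC library (0.0988 and 0.0996) or SCA1+Msc replicate 2 (0.146).

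In culture the cells kept Hox RNA, in another composition. The summed TPM was 59.0 and 66.2 at day 0, 75.6 and 94.2 after culture alone and 58.7 and 86.9 in co-culture. Both sums after culture alone lay above both fresh sums, whereas the co-cultured samples overlapped the fresh ones. Hoxa5 made up 44.9 and 53.9% of the sum at day 0, 10.3 and 20.04% after culture alone and 18 and 15% in co-culture. The HoxB share was 17.2 and 20.3% at day 0, 32.6 and 39.9% alone and 27.7 and 35.8% in co-culture, and the share of HoxC and HoxD together was 0.903 and 3.47%, 8.59 and 14.1%, and 21.0 and 12.2%. In each of these 3 shares both cultured groups lay outside the range of the day 0 samples. The HoxC share alone overlapped, with 0 and 3.30% at day 0, 2.95 and 3.56% alone and 1.33 and 7.56% in co-culture. Fresh cells of the homeostasis experiment also reached such shares. PDGFRα+SCA1- cells had 21.5, 0 and 16.7% HoxC and HoxD in mice A, E and F, and PDGFRα-SCA1+ cells 23.2 to 38.4% HoxB.

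**Figure D3:**
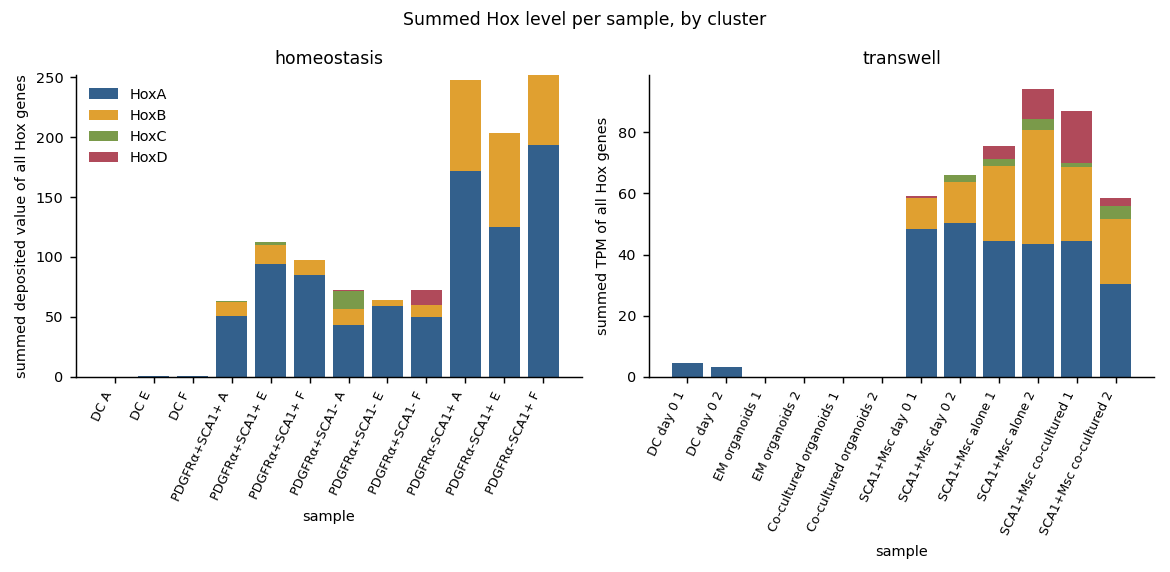
Stacked bars of the summed level of all Hox genes in each sample, coloured by cluster, on linear axes that start at 0, with deposited values for homeostasis and TPM for the transwell experiment. PDGFRα-SCA1+ cells reach the highest sums (203 to 252), the HoxB and HoxD parts widen in cultured SCA1+Msc cells, and both kinds of organoid are empty.

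Hoxb7 rose in both cultures. It was at 1.05 and 2.16 at day 0, at 11.3 and 12.0 after culture alone and at 7.57 and 6.55 in co-culture, with no overlap between fresh and cultured samples. It rose by 2.32 (log2, SE 0.30, adjusted p = 0.000232) alone and by 1.66 (SE 0.30, adjusted p = 0.00173) in co-culture, and both calls held under every alternative run. Hoxb2 was at 1.72 and 1.63 at day 0, 3.03 and 3.43 alone and 4.21 and 3.97 in co-culture. It rose in co-culture (0.93, SE 0.26, adjusted p = 0.017), but not past the threshold alone (0.66, adjusted p = 0.067), and the former call was lost without either co-cultured library (0.0675 and 0.0527) and with a pseudocount of 0.1 (0.0947). With quantile normalization Hoxb2 was called alone too (0.0224).

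Among central and 5′ members, the 5′ gene Hoxd9 had no reads at day 0 and was at 0.671 and 3.24 alone and at 7.32 and 1.49 in co-culture. Its means were at least 8.35-fold and 18.8-fold above fresh cells, with replicates far apart. It rose in co-culture (2.19, SE 0.57, adjusted p = 0.0115) but not past the threshold alone (1.41, SE 0.57, adjusted p = 0.0696). Its neighbour Hoxd8 was at 0.533 and 0 at day 0, 1.52 and 6.58 alone and 8.29 and 0.808 in co-culture. Replicates of Hoxd8 and Hoxd9 were far apart within a culture, and Hoxd8 passed the threshold in neither (adjusted p = 0.0659 and 0.081). Hoxc6, without reads at day 0, was at 1.68 and 1.07 alone and at 0.853 and 0.345 in co-culture, at least 6.62-fold and 2.88-fold higher. It rose alone (1.24, SE 0.28, adjusted p = 0.00581) and was not called in co-culture (0.66, adjusted p = 0.0884). Hoxb8, at 0.185 and 0.253 at day 0, was at 0.445 and 1.08 alone and at 1.80 and 1.31 in co-culture, where it rose (1.06, SE 0.28, adjusted p = 0.0133). Hoxa7, at 0 and 0.870, 0 and 0.189, and 2.86 and 1.20 in these groups, rose in co-culture (1.09, SE 0.38, adjusted p = 0.0411). Hoxc6 passed the filter on low values only through both mesenchyme-alone samples and Hoxa7 only through both co-cultured samples, so these calls are no support. Hoxd9 and Hoxb8 reached a TPM of 1 only in cultured mesenchyme, so their co-culture calls are no support either. The co-culture calls of Hoxd9 and Hoxb8 were lost without co-cultured replicate 1 (0.0808 and 0.0748). That of Hoxa7 was lost without day 0 replicate 1 (0.232), when any 1 DC, organoid or mesenchyme-alone library was left out (0.0529 to 0.0616), with the replicate block (0.0558) and with a pseudocount of 0.1 (0.0773).

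**Figure D4:**
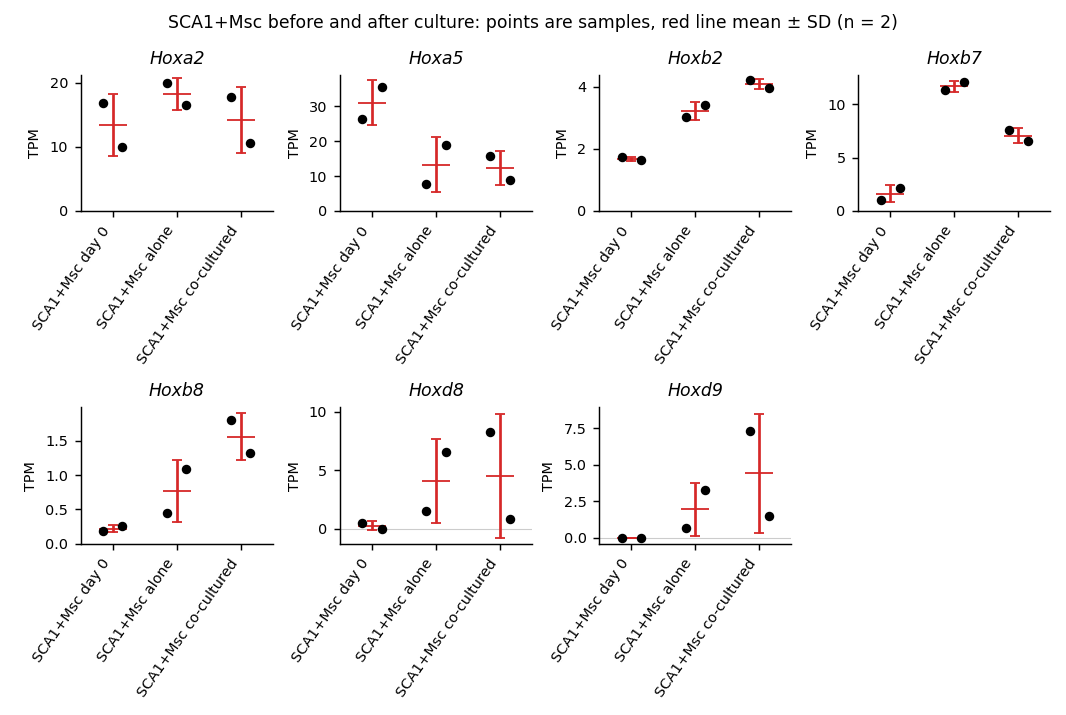
TPM (linear axis) of Hoxa2, Hoxa5, Hoxb2, Hoxb7, Hoxb8, Hoxd8 and Hoxd9 in fresh (day 0), mesenchyme-alone and co-cultured SCA1+Msc samples. Black points are samples, and red lines with bars are the mean ± SD (n = 2). All 4 cultured samples lie above both fresh samples for Hoxb7 and below them for Hoxa5, and the 2 replicates of Hoxd8 and Hoxd9 lie far apart.

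Hoxa5 was lower in each of the 4 cultured samples, at 7.78 and 18.9 alone and 15.6 and 8.78 in co-culture against 26.5 and 35.6 at day 0. The differences of -1.26 (SE 0.50, adjusted p = 0.0647) and -1.31 (SE 0.50, adjusted p = 0.0578) did not pass the threshold. Hoxa5 was called alone without either DC day 0 library (0.0463 and 0.0453) or without alone replicate 2 (0.0287), and in co-culture with quantile normalization (0.0474) and without any 1 of the DC day 0 or mesenchyme-alone libraries (0.0403 to 0.0425). Hoxa2 was at 19.97 and 16.5 alone and at 17.8 and 10.5 in co-culture, which overlaps its day 0 range of 9.96 to 16.8. Hoxb5 was at 4.72 and 10.6 alone, overlapping 3.03 and 5.03 at day 0, and at 5.04 and 6.12 in co-culture, just above them. Hoxb4 was between 1.69 and 2.96 in all 6 samples and Hoxa3 between 2.11 and 4.88. Hoxa4, Hoxb3, Hoxc4, Hoxc5, Hoxc8, Hoxc13 and Hoxd10 were each at most 2.29 in every sample, and Hoxa6, Hoxd1, Hoxd3 and Hoxd4 at most 0.622. Hoxb6 was at 2.72 and 7.19 alone and 2.49 and 0.846 in co-culture, against 1.08 and 2.29 at day 0, and was not called (1.08, SE 0.45, adjusted p = 0.0805 alone).

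Only 16 members passed the filter on low values, so 23 could not be called, and the shares of all genes are over those that passed it. After culture alone 3 of 39 members rose, where 27.4% of all genes tested rose and 17.5% fell. In co-culture 5 of 39 rose, where 26% of all genes tested rose and 17.3% fell, and no member fell in either. With the limit above, these include Hoxc6 after culture alone and Hoxa7, Hoxb8 and Hoxd9 in co-culture. Paralogues from Hox9 to Hox13, which had no read in any fresh sample of either experiment, received 109 reads in culture alone (Hoxa10, Hoxc13, Hoxd9 and Hoxd10) and 144 in co-culture (Hoxa9, Hoxb9, Hoxc13, Hoxd9 and Hoxd10). Hoxa9, Hoxb9 and Hoxa10 had 3, 3 and 2 of these reads. Members with any read numbered 17 at day 0, 25 alone and 26 in co-culture, and 11 members (Hoxb1 and 10 paralogues from Hox9 to Hox13) were without reads in all 24 samples of both experiments. Depth differed, with 19.7 and 19.3 M reads at day 0, 27.2 and 25.6 M alone and 21.8 and 24.9 M in co-culture. All genes with a TPM of at least 1 numbered 14244 and 14215, 13524 and 13563, and 13568 and 13605 in these groups. The part of depth in the counts of members and reads was not tested. Between co-cultured and mesenchyme-alone cells limma called no member, where 0.127% of all genes were called in either direction, and 2 had an unadjusted p under 0.05. These were Hoxa7, higher in co-culture by 1.42 (adjusted p = 0.342), and Hoxb6, lower (-1.12, adjusted p = 0.666). Hoxb7 differed by -0.66 (adjusted p = 0.731) and Hoxa2 by -0.38, with a 95% interval from -1.16 to 0.40. Other marker lists moved with culture. Proliferation markers summed to 7.10-13.2 at day 0, 94.3-95.6 alone and 123-137 in co-culture, and 6 of 6 rose in both. Hepatocyte markers summed to 19855-24369 at day 0 and to 41.5-54.3 alone, where 7 of 7 fell. Of the 9 endothelial markers, whose sum went from 1243-1247 to 1005-1085 alone, 5 fell and Stab2 and Lyve1 were without reads. Erythroid markers went from 7470-9416 to 1.36-1.81 alone (4 of 4 fell), ductal markers from 1290-2718 to 213-237 (6 of 7 fell) and leukocyte markers from 70.1-92.5 to 1.43-4.24 (3 of 3 tested fell). Stellate markers went from 963-1177 to 417-497 (5 of 8 fell, 1 rose), portal fibroblast markers from 5422-5876 to 13922-15822 (2 of 8 rose, 4 fell) and smooth muscle markers from 785-952 to 3367-3631 (2 of 6 rose, 1 fell). In these 6 lists the counts in co-culture were equal, apart from 5 portal fibroblast markers that fell. The part of these other cells in the Hox changes was not tested.

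**Figure D5:**
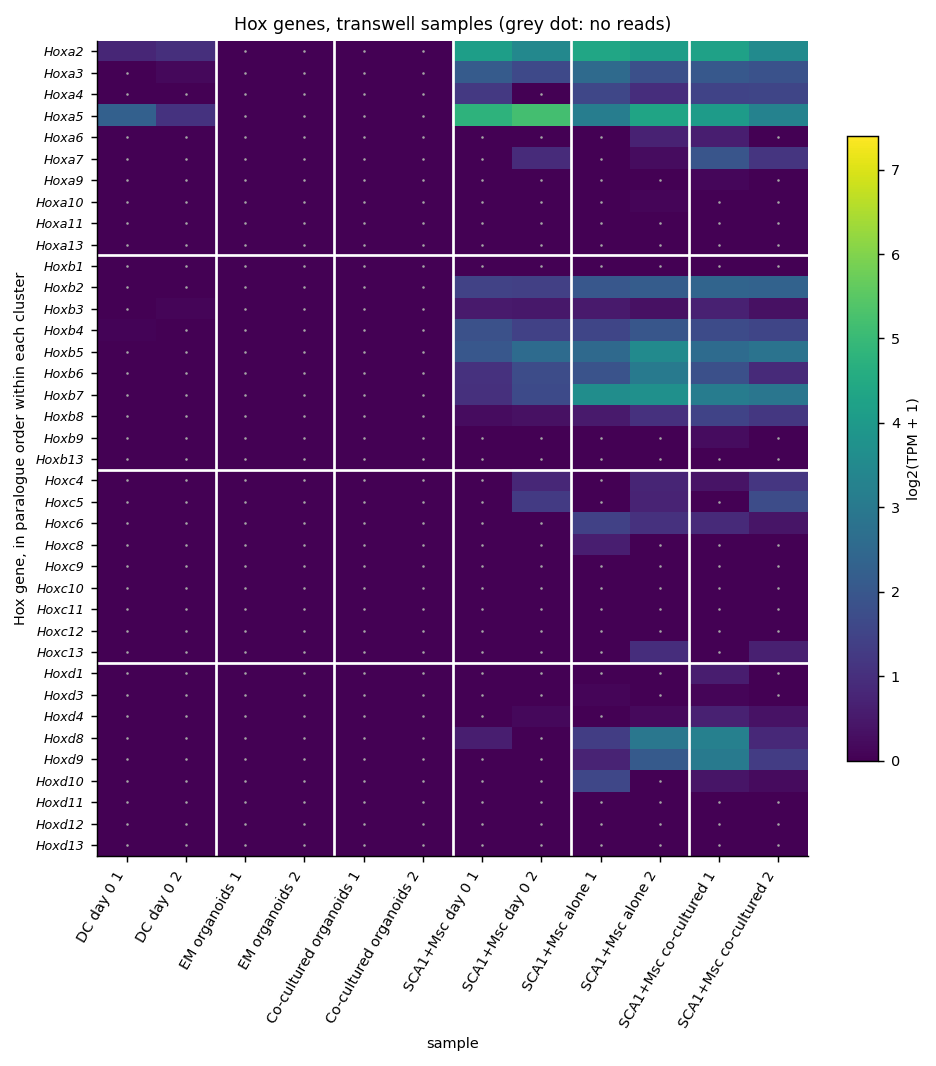
Heat map of log2(TPM + 1) of the Hox genes reported here, in paralogue order within each cluster (rows), in the 12 transwell samples (columns, named by group and replicate). Grey dots mark values without reads. The 4 organoid samples are without reads in every row, and Hoxc6, Hoxd9 and Hoxd10 have values in cultured but not in fresh SCA1+Msc cells.

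DCs at day 0 held a low level, with Hoxa5 at 3.78 and 1.11, Hoxa2 at 0.720 and 0.990 and 6 members with any read. In EM organoids and in co-cultured organoids all 39 members were without reads in both replicates. Mean Hoxa5 in DCs at day 0 was at least 9.76-fold above EM organoids and 11.5-fold above co-cultured organoids, and mean Hoxa2 at least 3.23-fold and 3.81-fold. Hoxa5 was the 1 member called in EM organoids (fell by 1.67, SE 0.50, adjusted p = 0.0216, where 17.2% of all genes fell and 27.1% rose) and in co-cultured organoids (-1.67, SE 0.50, adjusted p = 0.0225, where 19.1% of all genes fell and 23.2% rose). Both calls were lost without DC day 0 replicate 1 (0.161 and 0.165) and without any 1 of the organoid libraries compared (0.0785 to 0.0829). Between both kinds of organoid limma called 0 members (0 at an unadjusted p under 0.05), all being without reads, and 12.9% of all genes. The mesenchymal markers summed to 79.5-99.7 in DCs at day 0 and to 2.44-8.00 in EM organoids, with Pdgfra and Pdgfrb at 0, and endothelial markers to 70.0-71.0 and 3.28-8.05. The part of such cells in the Hox reads of fresh DCs was not tested.

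The culture effects were compared directly, as SCA1+Msc alone against day 0 minus EM organoids against DCs at day 0. The mesenchymal cells were expanded on plates in another medium, and the EM organoids grew in Matrigel in expansion medium. Cell type and culture conditions cannot be told apart in this contrast. Of all genes tested, 12.3% were more positive in mesenchyme and 14.5% more negative. Of 39 members, 16 of them tested, 2 passed the threshold, Hoxb7 (2.32, SE 0.43) and Hoxc6 (1.24, SE 0.40). Both genes were without reads in DCs and organoids, so the DC side of the contrast is 0 and the values repeat the change in mesenchyme. A differing response of DCs was not tested by them. Hoxc6 passed the filter on low values only through both mesenchyme-alone samples, so its call here is no support. The call of Hoxc6 was lost without any 1 DC, EM organoid, co-cultured organoid or day 0 mesenchyme library (0.0725 to 0.103), whereas that of Hoxb7 was kept.

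Cofactors and regulators of Hox genes are given by lists, each count being of genes past the threshold, to be read against the shares of all genes. These were 9.85% higher and 14% lower in PDGFRα+SCA1+ cells against DCs, 10.9% and 7.86% in PDGFRα-SCA1+ against PDGFRα+SCA1+ cells, and 27.4% and 17.5% after culture alone. The TALE list holds 11 homeodomain genes of the class that includes Hox cofactors such as Pbx and Meis, and not all 11 are such cofactors. Of these, 4 were higher in PDGFRα+SCA1+ cells than in DCs (Pknox2 by 3.76, Meis1 by 3.24 and Pbx3 by 2.65 among them). Tgif1 was lower (-2.19), and the list median was 0.71 against -0.28 over all genes. Meis2 averaged 50.8 ± 18.1 for PDGFRα-SCA1+ and 2.89 ± 2.15 for PDGFRα+SCA1+ cells (SD, n = 3, log2 difference 3.81, SE 0.72, adjusted p = 0.00273), whereas Meis3 was lower (-3.29). In mesenchyme cultured alone Meis3 rose (1.45), and Tgif1 (-3.03), Tgif2 (-1.89) and Meis2 (-1.32) fell, with a list median of 0.09 against 0.19. Other transcription factors that mark regions of mesoderm (43 listed) set the PDGFRα+ cells apart. Of 27 tested, 20 were higher in PDGFRα+SCA1+ cells than in DCs, led by Tcf21 (8.97), Foxf1 (7.49) and Gata4 (6.64), and none lower, with a list median of 3.24. In PDGFRα-SCA1+ against PDGFRα+SCA1+ cells 14 were lower, among them Tcf21 (-7.62) and Foxf1 (-6.20), and 2 were higher, Nkx2-3 (3.34), a gene of spleen and gut vessels and mesenchyme, and Gata4 (1.28). After culture alone 10 of 29 rose, led by Hand2 (2.67), Foxf2 (2.26) and Tbx18 (2.11), and 6 fell, led by Meox1 (-3.32) and Tcf21 (-2.38), with a list median of 0.38 against 0.19, beside 27.4% of all genes that rose and 17.5% that fell.

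Retinoid genes, which make, degrade or sense the retinoic acid that acts on Hox clusters, differed between stromal populations. In PDGFRα-SCA1+ against PDGFRα+SCA1+ cells, 4 of 15 were higher, led by the retinoic acid-degrading enzymes Cyp26b1 (5.99, SE 0.84, adjusted p = 0.000298) and Cyp26a1 (3.81), and 4 were lower, led by Aldh1a2 (-3.84), an enzyme that makes retinoic acid. The list median was 0.65 against 0.25 over all genes, of which 10.9% were higher and 7.86% lower. After culture alone 8 of 17 rose, led by Crabp1 (5.62) and Aldh1a2 (3.63), and Rxrg (-1.52) and Rdh10 (-1.43) fell, with a list median of 0.49 against 0.19. Of all genes, 27.4% rose and 17.5% fell. Polycomb subunits, which hold Hox clusters silent, went both ways after culture alone, with 7 of 26 higher (Pcgf6 by 2.09, Cbx2 by 2.02 and Bmi1 by 1.79 among them) and 4 lower (led by Jarid2, -2.60), and a list median of -0.02 against 0.19, close to the 27.4% and 17.5% of all genes. Of 13 Trithorax-group and related genes, 6 rose and 2 fell, namely Kdm6b, which removes the Polycomb mark (-4.61), and Dot1l (-3.17), with a list median of 0.17 against 0.19. Kdm6b fell also in co-cultured mesenchyme, which kept Hox RNA, and in EM organoids (-3.34) and co-cultured organoids, which had no Hox reads. A link between Kdm6b and Hox reads was not tested. Of 26 neighbours and non-coding RNAs of the clusters, 9 could be tested. Hotairm1, a non-coding RNA of the HoxA cluster, was higher in PDGFRα+SCA1+ cells than in DCs (3.70, SE 0.50, adjusted p = 0.000162) and in SCA1+Msc cells than in DCs at day 0 (2.85, SE 0.27, adjusted p = 2.57e-05). Library preparation did not mark strand, and 27.3% and 52.9% of the Hoxb2 and Hoxb3 exons overlap Hoxb3os, and 27.1%, 20.4% and 15.0% of the Hoxa3, Hoxa7 and Hoxa2 exons overlap other annotated genes, so the values of these members may share reads. No exon of Hoxa5, Hoxb4, Hoxb6, Hoxb7, Hoxb8, Hoxc6, Hoxd8 or Hoxd9 overlaps another gene.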

How the data were processed

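The 24 samples of 2 experiments were grouped by the population or culture named in their labels. According to the methods, Smart-seq2 libraries were read in single 50-base reads, aligned to GRCm38 with STAR (2.5.0a in the submitters' processing notes), filtered with SAMtools and counted on exons with featureCounts. RPKM were deposited for the transwell samples and were rescaled here to TPM, with the same sum in each sample. For homeostasis the authors deposited values named TPM (another unit in fact: columns sum to 847270 to 1173511), with 4 columns of population means that were not used. These values were used as deposited, and a TPM with the reused totals undone was an alternative. The design had assumed TPM.

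Genes that reached 1 in 3 or more (homeostasis) or 2 or more (transwell) samples were tested in each experiment with limma 3.58.1 (R 4.3.3; lmFit, eBayes with trend, two-sided) on log2(value + 1), over all 12 samples with 1 mean per group, and p-values were adjusted by Benjamini-Hochberg over all genes tested; calls are at an adjusted p under 0.05. Fold changes on this scale understate low genes, and those of genes without reads in a group depend on the pseudocount. Homeostasis replicates are mice, and transwell replicates come from littermates. The p-values measure the spread within groups, pooled over all 12 samples of an experiment. Groups without reads add no spread, which lowers the SE of a gene whose other groups vary. Populations of the same letter come from the same mouse, so the mouse pairs them; their deviations from group means correlated at 0.00395 to 0.0973. The members and gene lists were chosen with earlier results of these data known. Samples are given for members with a group mean of at least 5, and fold changes for members past the threshold between stromal populations or between cultured and fresh cells and their paralogues; of each list up to 6 called genes are named. Results of a few genes are not reported here, and counts and sums include them. Alternatives are given in the closing section. In simulated data, 30.0% of 200 genes changed by a log2 fold of 2 were called for PDGFRα+SCA1+ against PDGFRα+SCA1- (17028 genes; 6.25% of calls false), and 61.5% for SCA1+Msc alone against day 0 (18136 genes). Tables and plots were made with Python 3.11.15, pandas 2.3.3, numpy 2.4.6, scipy 1.17.1 and matplotlib 3.10.9. Depth was read back from the steps of low values, and the precision of low genes is set by it: 3 reads were the floor.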

Additional observations from a re-analysis of the deposited data

Results flagged for a closer look

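Hoxb7 and Hoxc6 passed the threshold of an interaction contrast in limma (SCA1+Msc alone against day 0, minus EM organoids against DCs at day 0). The contrast was 2.32 (log2) for Hoxb7, which was higher in both cultured than in both fresh mesenchyme samples, and 1.24 for Hoxc6, also higher in both. Both genes were without reads in all DC and organoid samples, so these values repeat the change in mesenchyme and do not show a differing response of DCs. Hoxc6 passed the filter on low values only through both mesenchyme-alone samples, so its call is no support.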

How the results depend on the processing

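Of 45 fold changes past an adjusted p of 0.05, 26 kept their call in every fit that tested them with a pseudocount of 0.1, quantile normalization, the replicate block, the reused totals undone or 1 library left out, and none changed sign there. Of these 26, 19 were tested in all such fits. The other 7 (Hoxb6 and Hoxb7 in PDGFRα-SCA1+ cells, Hoxc6 alone) did not pass the filter without 1 of the libraries in which they were high. Members called changed by over 1.5 times as follows. With a pseudocount of 0.1 they were 4 in PDGFRα+SCA1- against DCs, 2 and 3 in PDGFRα-SCA1+ against PDGFRα+SCA1+ and PDGFRα+SCA1- cells, 2 in each kind of organoid against DCs and 4 for the difference of culture effects. With quantile normalization they were 5 in PDGFRα+SCA1- against DCs and 5 in mesenchyme alone against day 0. With a minimum value of 5, which tests fewer genes, they were 5 in PDGFRα-SCA1+ against DCs, 4 in SCA1+Msc against DCs at day 0, 2 in co-cultured mesenchyme against day 0 and 2 in EM organoids. Fitting only the groups compared gave 1 alone, 2 in co-culture and 1 for the difference of culture effects. Without the trend each kind of organoid had 2. With RPKM as deposited each kind of organoid had 0 and the difference of culture effects 1. Shares of all genes called are not given for these fits, and the cause of these moves was not tested.

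With the mouse as a replicate block, 9 members instead of 8 were called in PDGFRα-SCA1+ cells against DCs (Hoxa4 added). The labels do not say whether equal replicate numbers of the transwell groups share a mouse or a well. The block of these numbers left 1 for the difference of culture effects and 4 in co-culture. Undoing the reused totals moved no count by over 1.5 times.

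Leaving out 1 library in turn, counts against DCs ran from 2 to 6 (PDGFRα+SCA1+), 2 to 3 (PDGFRα+SCA1-) and 5 to 8 (PDGFRα-SCA1+). They ran from 0 to 1 between PDGFRα+ populations, 1 to 4 for PDGFRα-SCA1+ against PDGFRα+SCA1+ cells, 1 to 6 for PDGFRα-SCA1+ against PDGFRα+SCA1- cells, 7 to 8 in fresh SCA1+Msc, 3 to 5 alone, 1 to 6 in co-culture, 0 to 0 between both cultures and between both organoids, 0 to 2 in each kind of organoid against DCs and 1 to 2 for the difference of culture effects. The lowest came without the DC library of mouse A or F (2), the PDGFRα-SCA1+ library of mouse F (5 against DCs, 1 against each PDGFRα+ population) or A (1 against PDGFRα+SCA1+ cells, 2 against PDGFRα+SCA1-), and co-cultured replicate 1 (1). Without the PDGFRα-SCA1+ library of mouse E 3 were called against PDGFRα+SCA1- cells, and without the DC library of mouse E 3 in PDGFRα+SCA1+ cells. Alone, 5 were called without alone replicate 1 or either co-cultured mesenchyme library. The organoid calls went to 0 without DC day 0 replicate 1 or 1 of the organoid libraries compared, and to 2 without either day 0 mesenchyme library. The difference of culture effects had 1 without any DC or organoid library or without alone replicate 1.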

Other observations

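ParaHox genes, relatives of the Hox clusters that pattern the gut, were read outside the comparisons of Hox genes. Cdx2, an intestinal regulator, was at 3.21 and 4.87 TPM in co-cultured organoids and without reads in the 22 other samples of both experiments. Pdx1, a regulator of pancreas and duodenum, was at 2.27 ± 0.90 TPM in DCs at day 0, 19.8 ± 1.3 in EM organoids and 16.6 ± 0.33 in co-cultured organoids (SD, n = 2), and without reads in all mesenchyme samples of both experiments. Cdx1 was at 0 in every sample.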
